A study of Mus musculus with 6 samples.

Results

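Ano6 and genes related to it by family or by function were examined in epithelial cells of the mouse intestine at an age of 12 days. The set holds 10 genes of the 18159 in the deposited table: the anoctamins Ano1, Ano5, Ano6, Ano7, Ano8, Ano9 and Ano10, the Xk-related gene Xkr8, and the phospholipid scramblases Plscr1 and Plscr3. They were chosen by gene symbol around Ano6, which entered because its level in the libraries labelled Git2-knockout was far below that in wild-type. That difference is therefore given as a description without a test. The question for the relatives was whether any of them was higher where Ano6 was low.

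The study compared 3 libraries from wild-type mice with 3 from mice that the titles call Git2-knockout and the genotype field calls Git2 knockdown. The titles speak of isolated epithelial cells, while the series text speaks of enteroids, epithelial cultures grown from crypts. The sources used here do not say how Git2 was altered, in which cells, or whether libraries of a group came from separate animals. P-values then measure only the spread between these libraries, which may be technical.

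Cell membranes keep phosphatidylserine on the inner leaflet by means of flippases, which are ATP-driven pumps of the P4 family. Scramblases undo this arrangement by letting lipids pass in either direction, which exposes phosphatidylserine as a signal for clotting and for engulfment of dying cells. Ano6 (TMEM16F) is the calcium-activated scramblase of platelets, and its loss in humans underlies the bleeding disorder Scott syndrome. Other anoctamins are calcium-activated chloride channels (Ano1, Ano2) or have less settled roles. Xkr8 is a scramblase switched on by caspases in apoptosis, and Plscr1 is an interferon-inducible protein whose part in scrambling is disputed.

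Each library held 16284414 to 19106581 estimated reads, and those labelled Git2-knockout were the shallower 3. Git2 itself was measured at 22.2, 23.7 and 22.7 CPM (read counts scaled to library size after TMM adjustment) in wild-type and at 17.4, 15.5 and 16.8 CPM in the other group. This transcript level does not check the label, since it is not known here which sequence was altered. Epithelial identity was evident, with all 14 epithelial markers tested. Of these, 12 fell and 0 rose by edgeR, and with length and GC trends both removed (an alternative analysis described with the methods) 6 fell and 3 rose. Their summed level was 16916 to 17233 TPM (a share of all transcripts, corrected for transcript length) in wild-type and 16026 to 16181 TPM in the other group. Replicate 1 of the libraries labelled Git2-knockout stood furthest from its group (chi-square per degree of freedom 5.05 and 6.79 against the other two). Several marker lists of other cell types rose, 8 of 8 tested for fibroblasts (summed 32.0 to 35.0 against 94.1 to 103 TPM) and 7 of 7 for endothelium among those that reached the count filter in wild-type too (summed over the whole list 15.7 to 16.1 against 38.8 to 42.9 TPM), and their part in the results below was not tested. Over all tested genes 29.6% rose and 27.4% fell. Of B cell markers 6 of 7 fell, and of macrophage markers 2 rose and 1 fell of 9. No marker was at 0 in all libraries. In such bulk libraries fewer cells of a type and less RNA per cell cannot be told apart.

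Ano6, gene 105722 on chromosome 15, was the only anoctamin with a difference of this size. Wild-type libraries held 182, 170.3 and 175 CPM, and the Git2-knockout libraries 19.4, 22.3 and 21.0 CPM. The groups were far apart, and the lowest wild-type library stood well above the highest of the other group. The means were 176 ± 5.69 and 20.9 ± 1.42 CPM (SD, n = 3 each), an 8.41-fold difference. In TPM they were 64.2 ± 2.45 and 8.58 ± 0.755, a 7.49-fold difference.

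The remaining Ano6 signal had the same apparent transcript length as in wild-type. The length implied by the estimated count and the FPKM (reads per kilobase, scaled to depth) was 5538, 5531 and 5532 bases in wild-type and 5504, 5548 and 5478 bases in the other group. The ranges overlapped, so no shift to a shorter or longer mix of annotated transcripts was detectable. A change within 1 annotated transcript would not show in this measure. Ano6 overlaps no protein-coding gene in the RefSeq table of GRCm38, but it overlaps 3 other annotated genes, and the strand setting of the counting is not known here.

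The genes next to Ano6 on chromosome 15 did not share its difference. Of the 10 tested genes on each side, 10 rose, 2 fell and 8 were not called. Over all tested genes 29.6% rose and 27.4% fell. Their log2 fold changes ran from -0.47 to 0.93. The gene at 0.93, counted among the rises, averaged 0.517 CPM in wild-type and passed the filter on low counts only with libraries of the other group. The next highest was at 0.81. The nearest on one side, Tmem117, was at 12.2 ± 0.918 and 12.5 ± 0.445 CPM, and Twf1, an actin monomer binding protein, at 166 ± 1.65 and 194 ± 2.86 CPM. On the other side Arid2, a chromatin remodelling subunit, was at 51.1 ± 2.67 and 62.5 ± 8.45 CPM, and Scaf11, a splicing factor, at 125 ± 4.23 and 147 ± 14.1 CPM. Irak4, a kinase of Toll-like receptor signalling, stood at 38.0 ± 2.02 and 37.0 ± 2.02 CPM.

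**Figure D1:**
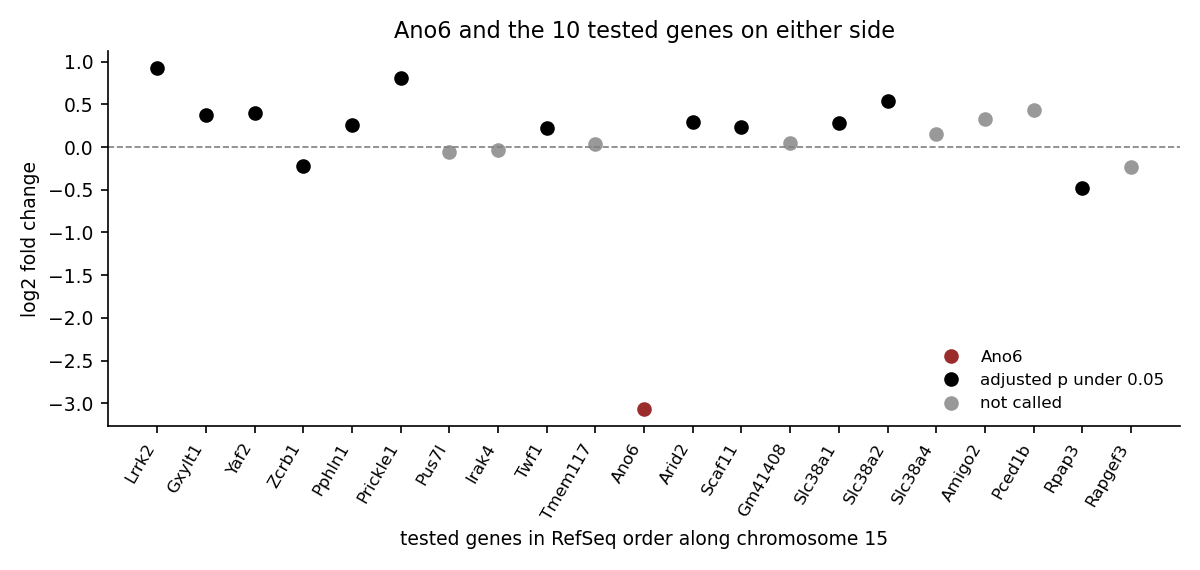
Log2 fold change, Git2-knockout over wild-type, of Ano6 and of the 10 tested genes on each side of it in RefSeq order along chromosome 15 (1 point a gene, 3 libraries per group). Ano6 lies at -3.07 and its neighbours between -0.47 and 0.93, the highest of them a gene under the count filter in wild-type.

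The profiles most like that of Ano6 belonged to other genes with large differences. Likeness was the distance between log2 CPM profiles over the 6 libraries after centring each gene on its mean. The ranking took in genes whose log2 CPM averaged 1 or more. In order of distance the 5 closest genes were Zg16, a secretory lectin (0.56), Col16a1, a collagen (0.61), Fabp6, the ileal bile acid binding protein (0.83), Acot12, an acyl-CoA thioesterase (0.88) and Fabp1, a fatty acid binding protein (1.17). With only 2 groups such a profile is mainly the size of 1 difference. None of the 5 is an anoctamin or a scramblase, which follows from the smaller or opposite differences of those genes.

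Among the relatives 1 gene rose and 4 fell. Of the 9 other genes in the set, Ano5 did not pass the filter on low counts, and 8 were tested with edgeR's quasi-likelihood test and Benjamini-Hochberg adjustment over all 13558 genes tested. Ano9 rose, Ano1, Ano7, Ano8 and Ano10 fell, and Xkr8, Plscr1 and Plscr3 were not called. Over all tested genes 29.6% rose and 27.4% fell (4013 and 3712 genes), 57% in either direction. All 8 reached the filter in both groups. On log2(TPM + 1), tested with limma, 5712 genes rose and 1894 fell. The groups did not overlap in CPM for 6 of the 8, and for 62.9% of all tested genes. The median log2 fold change of the 8 was -0.12, beside 0.015 for all tested genes.

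**Figure D2:**
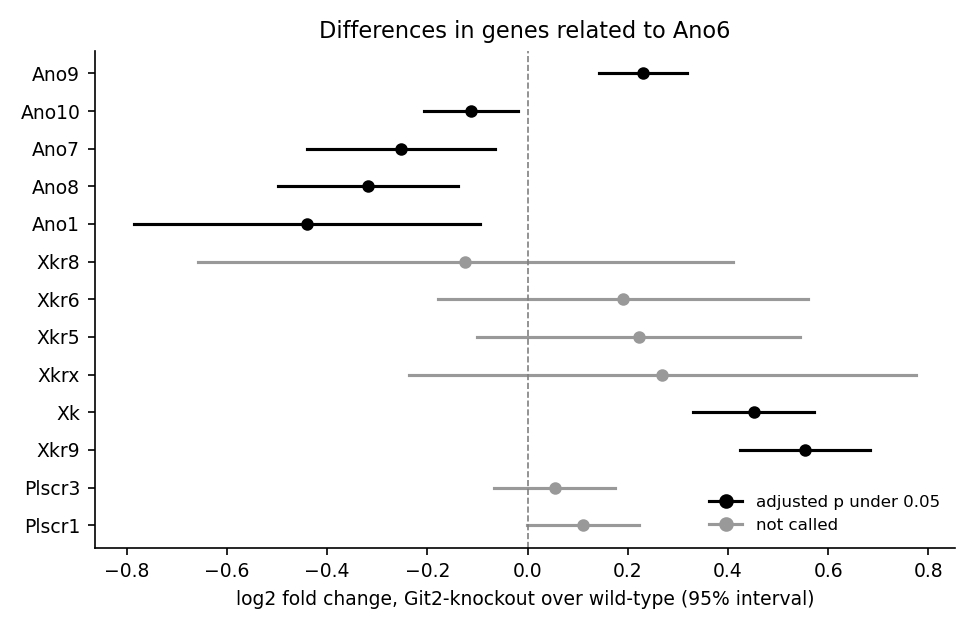
Log2 fold change with its 95% interval (edgeR, 3 libraries per group) for the tested relatives of Ano6, black where the adjusted p is under 0.05 and grey where it is not. Ano9, Xk and Xkr9 lie above 0, Ano1, Ano7, Ano8 and Ano10 below it, and Ano6 and Plscr4 are left out.

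Ano9 was the most abundant anoctamin by TPM in both groups and the one that rose. Its level was 184, 186 and 182 CPM in wild-type and 211, 224 and 214 CPM in the other group. All 3 libraries of the latter group exceeded all 3 of the former. The rise was 1.17-fold (95% interval 1.10 to 1.25), or 0.23 ± 0.04 on the log2 scale (SE), with an adjusted p of 1.70e-04 by edgeR. It was of ordinary size for this comparison, since 47.1% of tested genes differed by as much or less. The call was kept in all 19 alternative analyses, at log2 fold changes of 0.19 to 0.38 and adjusted p of 3.45e-08 to 0.00262.

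Ano10, the next most abundant anoctamin by TPM, is a gene mutated in a recessive cerebellar ataxia. It stood at 121, 123 and 128 CPM in wild-type and at 114, 118 and 112 CPM in the other group. The groups came close without overlapping, and the difference was small. Ano10 fell, at a log2 fold change of -0.11 with SE 0.04 and an adjusted p of 0.0385 by edgeR. In TPM the groups overlapped, and with limma on log2(TPM + 1) the log2 difference was 0.05 (adjusted p = 0.339). The call held in 10 of 19 alternative analyses. Among those that lost it were the fits without wild-type replicate 2 (edgeR, adjusted p = 0.0924), wild-type replicate 3 (0.148) or Git2-knockout replicate 3 (0.0967).

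Ano8, a protein reported to tether the endoplasmic reticulum to the plasma membrane, was much less abundant. It was at 19.6, 17.04 and 19.7 CPM in wild-type and at 13.9, 15.8 and 15.5 CPM in the other group. Every wild-type library was higher than each of the others, wild-type replicate 2 by the least. Ano8 fell, at a log2 fold change of -0.32 with SE 0.08 and an adjusted p of 0.00429 by edgeR, with a 95% interval of -0.50 to -0.14. The call did not hold on log2(TPM + 1), where the log2 difference was -0.15 (limma, adjusted p = 0.187), nor after a trend of fold change with GC content was removed (-0.11, edgeR adjusted p = 0.286). Ano8 overlaps the protein-coding gene Dda1 in RefSeq.

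Ano7, known mainly as a prostate gene, was at 14.7, 14.3 and 13.1 CPM in wild-type and at 11.05, 12.7 and 11.6 CPM in the other group. The lowest wild-type value lay just above the highest of the libraries labelled Git2-knockout. Ano7 fell, at a log2 fold change of -0.25 with SE 0.09 and an adjusted p of 0.0227 by edgeR. The call was lost without wild-type replicate 1 (adjusted p = 0.0869) or 2 (0.0717), and without replicate 3 of the other group (0.0522). On log2(TPM + 1) the log2 difference was -0.08 (limma, adjusted p = 0.451), and with the GC trend removed it was -0.10 (edgeR, adjusted p = 0.404).

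Ano1 is the calcium-activated chloride channel of secretory epithelia, smooth muscle and the pacemaker cells of the gut wall, the interstitial cells of Cajal. It rested on 39 to 85 estimated reads per library, at 4.46, 4.38 and 4.52 CPM in wild-type and 2.37, 3.81 and 3.65 CPM in the other group. Replicate 1 of the libraries labelled Git2-knockout was the lowest of all. Ano1 fell, at a log2 fold change of -0.44 with SE 0.16 and an adjusted p of 0.0299 by edgeR. Without that library the difference was -0.28 (adjusted p = 0.111), and the call was also lost without wild-type replicate 1 (0.0698), 2 (0.0564) or 3 (0.0818). In TPM the groups overlapped, and on log2(TPM + 1) the log2 difference was -0.18 (limma, adjusted p = 0.227). The call was also lost with DESeq2 (adjusted p = 0.0825) and with the GC trend removed (-0.35, edgeR, adjusted p = 0.0883). It held in 11 of 18 alternative analyses. Among markers that reached the count filter in both groups, 4 of 6 for interstitial cells of Cajal and 1 of 3 for smooth muscle rose. Over all tested genes 29.6% rose. The part of such cells in the Ano1 level was not tested.

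Ano5, a gene of muscle and bone disorders, was at 0 reads in 5 libraries and at 1 read in replicate 3 of the libraries labelled Git2-knockout. A count of 0 allows up to 3 reads, or 0.157 to 0.184 CPM at these depths (counting error only). The anoctamins outside the set were also scarce. Ano2, the olfactory chloride channel, had 0 to 2 reads per library, and Ano4 had 0 or 1. Ano3 had 0, 0 and 7.1 reads in wild-type libraries and 3.19, 5.23 and 5.17 reads in the Git2-knockout ones, with no test because it did not pass the filter. None of these genes came near the Ano6 level in any library.

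Summed over the family, the anoctamin level without Ano6 was higher in every Git2-knockout library, by an amount that depended on the unit. In TPM the other 9 anoctamins summed to 249.8, 249.4 and 249 in wild-type and to 280.4, 307 and 289 in the other group. The mean difference was 42.9 TPM, of which Ano9 made 41.0, against a difference of 55.6 TPM in Ano6. With all 10 the sums were 314 ± 2.74 and 301 ± 14.3 TPM (SD, n = 3 each), and the groups overlapped.

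The sums depended on the scale. TPM sums to 1000000 in every library, yet the median log2(TPM + 1) difference of the tested genes was 0.14. The typical tested gene thus lay higher in TPM in the libraries labelled Git2-knockout. On TMM-scaled CPM per kilobase, Ano2, Ano3, Ano4 and Ano5 had no implied length and did not enter the sums. Without Ano6 the remaining anoctamins summed to 123 ± 0.952 and 129 ± 4.08, a mean difference of 5.88 against one of 28.0 in Ano6. With Ano6 included, the sums were 155 ± 0.929 and 133 ± 4.32, and the groups did not overlap. No test was run on these sums, because their members were chosen with earlier results known.

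**Figure D3:**
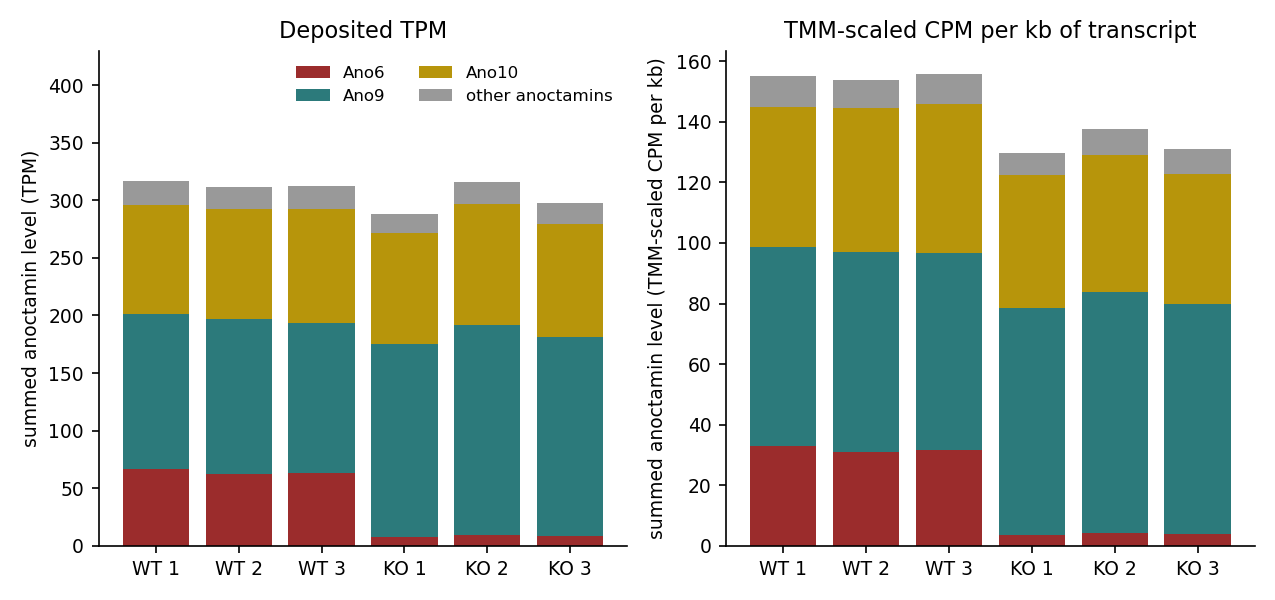
Summed anoctamin level in each of the 3 wild-type (WT) and 3 Git2-knockout (KO) libraries, stacked by gene, in deposited TPM (left) and in TMM-scaled CPM per kilobase (right). Ano2, Ano3, Ano4 and Ano5 do not enter the sum on the right. Ano6 makes 20.5% of the sum in wild-type and 2.85% in the other group, and the total is 314 against 301 TPM and 155 against 133 CPM per kilobase.

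The shares within the family differed too. Ano6, whose difference chose the set, is part of the total, so its lower level alone would raise the other shares. Ano10 itself overlapped between the groups in TPM (94.5 to 98.9 in wild-type, 96.6 to 104.7 in the other group). Ano9 made 41.7% to 43.2% of the anoctamin TPM in wild-type libraries and 57.7% to 58.0% in the others, and Ano10 made 29.8% to 31.7% and 33.0% to 33.5%. Ano6 went from 20.0% to 21.1% of the family in wild-type to 2.69% to 2.93%.

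In wild-type the order by TPM was Ano9, Ano10, Plscr1, Ano6, Xkr9, Plscr3, Xk, Ano8 and Ano7, followed by genes under 3 TPM. The ranges of neighbours in this order did not overlap except for Ano10 (94.5 to 98.9 TPM) and Plscr1 (93.9 to 97.0 TPM). In the libraries labelled Git2-knockout Ano6 (7.76 to 9.25 TPM) stood after Ano8 (8.29 to 9.80 TPM), with overlapping ranges, and above Ano7 (6.53 to 7.49 TPM). Plscr1 there lay above Ano10, without overlap.

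**Figure D4:**
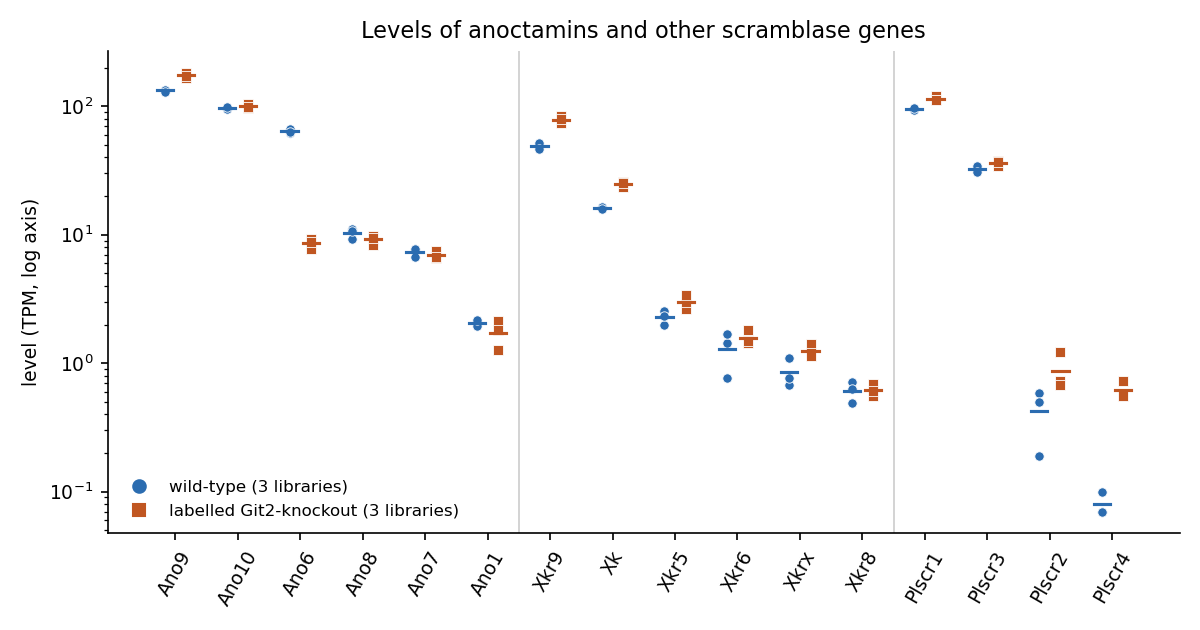
TPM per library on a log axis for anoctamins, Xk-related genes and Plscr genes, with circles for 3 wild-type libraries, squares for 3 libraries labelled Git2-knockout and a line at each group mean. Ano6 goes from 64.2 to 8.58 TPM and Ano9 from 133 to 174 TPM.

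Xkr8, the caspase-activated scramblase, was scarce in both groups. It was at 1.45, 0.961 and 1.28 CPM in wild-type and 1.03, 1.23 and 1.12 CPM in the other group, from 17.3 to 26.8 estimated reads per library. The ranges overlapped fully. Its log2 fold change was -0.12 with a 95% interval of -0.66 to 0.41 (edgeR, adjusted p = 0.699). The interval reached up to 1.33-fold, so a rise of up to that size was not excluded.

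Other Xk-related genes, which are not in the set, included the larger rises. Of 8 in the family 6 were tested, 2 rose and 0 fell, beside 29.6% and 27.4% of all tested genes. Xkr9, a caspase-regulated scramblase of the gut, was at 45.6, 48.3 and 45.1 CPM in wild-type and 74.2, 63.0 and 66.9 CPM in the other group. Every library labelled Git2-knockout was above every wild-type library. Xkr9 rose 1.47-fold (95% interval 1.34 to 1.60, edgeR, adjusted p = 1.31e-06), and the call held in 18 of 19 alternative analyses. It was lost with the GC trend removed, where the log2 fold change went from 0.55 to 0.09 (edgeR, adjusted p = 0.184). With length and GC trends both removed the log2 fold change was 0.27, still called (edgeR, adjusted p = 1.75e-05).

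Xk, the partner of the lipid transfer protein VPS13A and the Kell blood group protein, was at 40.4, 40.4 and 39.3 CPM in wild-type and 58.1, 50.9 and 55.2 CPM in the other group. These groups too were fully apart. Xk rose 1.37-fold (95% interval 1.26 to 1.49, edgeR, adjusted p = 5.48e-06), and the call held in 18 of 19 alternative analyses. It was lost with length and GC trends both removed, where the log2 fold change went from 0.45 to 0.10 (edgeR, adjusted p = 0.126). Alongside, 3 of 7 markers of platelets and erythroid cells that reached the count filter in both groups rose, beside 29.6% of all tested genes. All 3 are globin genes, and the tested platelet markers were not called. The whole list, mostly globins by level, went from a summed 88.2 to 93.4 TPM to 310 to 337 TPM. The part of such cells in the Xk level was not tested. Xkr5, Xkr6 and Xkrx were not called, at log2 fold changes of 0.22, 0.19 and 0.27, and Xkr4 and Xkr7 had at most 10 reads in any library.

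Plscr1 was at 75.4, 75.1 and 78.2 CPM in wild-type and 88.7, 78.7 and 79.6 CPM in the other group. The groups touched without overlapping, and replicate 1 of the libraries labelled Git2-knockout stood above its fellows. The log2 fold change was 0.11 (95% interval -0.00 to 0.22, edgeR, adjusted p = 0.0839) and did not pass the threshold. With the GC trend removed it was -0.08 (edgeR, adjusted p = 0.263). It did pass on log2(TPM + 1), at 0.25 (limma, adjusted p = 4.67e-04), and with the length trend removed, at 0.27 (edgeR, adjusted p = 1.35e-05).

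Plscr3, a mitochondrial member of the family, was at 40.7, 40.5 and 38.3 CPM in wild-type and 44.1, 40.0 and 40.1 CPM in the other group, with overlapping ranges. Its log2 fold change was 0.05 (95% interval -0.07 to 0.18, edgeR, adjusted p = 0.441). With length and GC trends both removed it was 0.26 (edgeR, adjusted p = 2.63e-04). Plscr3 overlaps the protein-coding gene Tnk1 in RefSeq.

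Plscr4, outside the set, rested on 2, 3 and 2 reads in wild-type libraries and 13, 13 and 17 reads in the Git2-knockout ones. The means were 0.125 ± 0.0307 and 0.851 ± 0.131 CPM. Plscr4 passed the filter only through the group in which it was higher, so no test is given. Plscr2 had 3.03 to 14.2 reads per library and Plscr5 had 0 or 1, and neither was tested. Fibroblast and endothelial markers rose in the same libraries, and their part in the Plscr4 level was not tested.

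**Figure D5:**
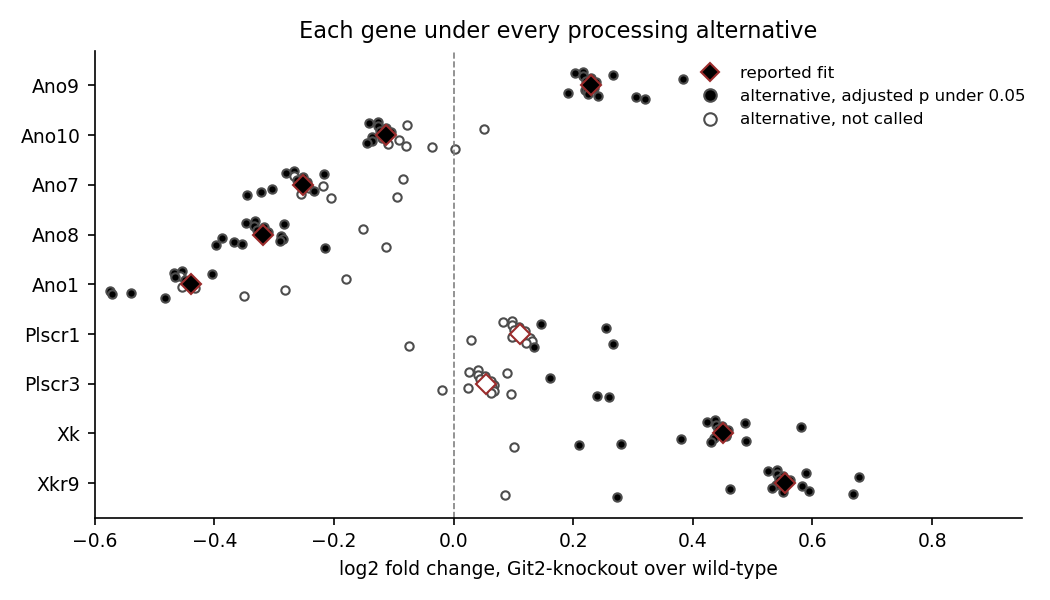
Log2 fold change of 9 relatives of Ano6 in the reported fit (diamonds) and under each processing alternative (circles, filled where the adjusted p is under 0.05). Ano9 stays at 0.19 to 0.38 and filled throughout, Ano10 runs from -0.15 to 0.05, and Xkr9 from 0.09 to 0.68.

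Among the pumps that oppose scramblases, the P4-ATPase flippases and their subunits, 8 genes rose and 1 fell of 14 tested, beside 29.6% and 27.4% of all tested genes. Their median log2 fold change was 0.30. Atp11a, a plasma membrane flippase for phosphatidylserine, rose from 533 ± 3.60 to 775 ± 47.8 CPM. Tmem30a (CDC50A), the subunit that most flippases need to leave the endoplasmic reticulum, went from 145 ± 2.88 to 218 ± 18.0 CPM.

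The endosomal Atp11b also rose (log2 fold change 0.51), and Atp9a, a P4-ATPase of endosomes and the Golgi, fell by 0.19 on the log2 scale. These 4 genes passed edgeR's test, with adjusted p of 4.76e-08 for Atp11a, 1.94e-07 for Tmem30a, 9.43e-08 for Atp11b and 0.00221 for Atp9a. With length and GC trends both removed 4 flippase genes rose and 2 fell. Atp11a was then at 0.34 and Tmem30a at 0.20 on the log2 scale, both still called, Atp11b at 0.07 (edgeR, adjusted p = 0.127) and Atp9a at -0.05 (0.201). Atp9a was also not called on log2(TPM + 1), at -0.03 (limma, adjusted p = 0.686), or with the GC trend removed, at 0.03 (edgeR, 0.593).

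Partners of the scramblases went in both directions. Basigin (Bsg), the chaperone that brings Xkr8 to the cell surface in many cells, fell from 659 ± 5.59 to 489 ± 10.5 CPM (edgeR, adjusted p = 8.01e-08), and neuroplastin (Nptn), which can take its place, rose from 125 ± 5.34 to 143 ± 9.98 CPM (edgeR, adjusted p = 0.00530). Vps13a, the lipid transfer protein that binds Xk, rose from 27.9 ± 1.65 to 43.5 ± 5.94 CPM (edgeR, adjusted p = 9.08e-05). With length and GC trends both removed, Bsg lay at -0.04, Nptn at 0.00 and Vps13a at -0.01 on the log2 scale, and none of the 3 was called. Over all 19 alternative analyses the calls of Bsg and Vps13a held in 18 each and that of Nptn in 17.

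Scramblases of the endoplasmic reticulum and of autophagy included 1 gene that rose and 2 that fell of 5 tested, a share called near the 57% of all tested genes, with a median log2 fold change of 0.05. Tmem41b rose (0.29, edgeR, adjusted p = 1.90e-04), and with the GC trend removed it lay at 0.03 (0.658). Atg9a, the scramblase of autophagosome formation, fell by 0.26 on the log2 scale (edgeR, adjusted p = 1.17e-04), and was at -0.09 on log2(TPM + 1) (limma, 0.106) and at -0.06 with the GC trend removed (edgeR, 0.264). Vmp1, which acts in autophagosome formation, was at 375 ± 5.32 and 388 ± 10.7 CPM and was not called.

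Lipid exporters of the ABC family, which move lipids outward, included 4 genes that fell and 1 that rose of 8 tested, a share called near the 57% of all tested genes, with a median of -0.17. On log2(TPM + 1) 2 fell and 1 rose (limma). The sterol exporter subunits Abcg5 and Abcg8 fell from 318 ± 4.65 to 222 ± 1.74 CPM and from 299 ± 4.23 to 228 ± 11.7 CPM (edgeR, adjusted p = 1.81e-08 and 1.45e-06). Abcg1, a cholesterol exporter, rose from 4.14 ± 0.468 to 6.35 ± 0.0968 CPM (edgeR, adjusted p = 4.58e-04).

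Genes that read exposed phosphatidylserine on other cells were mixed. Of the 10 that reached the count filter in both groups 5 rose and 2 fell, beside 29.6% and 27.4% of all tested genes. Mfge8, the secreted bridge between phosphatidylserine and integrins, fell from 444 ± 23.4 to 262 ± 11.2 CPM (edgeR, adjusted p = 2.25e-09). Gas6, the bridge to the receptors Axl and Mertk, was at 517 ± 11.9 and 528 ± 10.2 CPM and was not called. It was called as risen in 4 of 19 alternative analyses. Among these were log2(TPM + 1), at 0.19 (limma, adjusted p = 4.61e-04), and the fit with length and GC trends both removed, at 0.25 (edgeR, adjusted p = 4.64e-08). Protein S (Pros1) rose from 6.27 ± 0.634 to 11.8 ± 0.739 CPM, Axl from 73.5 ± 3.45 to 89.4 ± 3.72 CPM and the scavenger receptor Stab2 from 19.6 ± 1.57 to 35.4 ± 2.997 CPM (edgeR, adjusted p = 1.93e-06, 1.89e-04 and 1.30e-07). Stromal and vascular cells express several of these genes, their markers rose in the same libraries, and their part was not tested.

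Chloride channels and the transporters that serve chloride secretion included 10 genes that fell and 6 that rose of 22 tested, beside 27.4% and 29.6% of all tested genes, with a median of -0.06. The balance turned with the processing, from 6 falling and 8 rising on log2(TPM + 1) (limma) to 12 falling and 1 rising with length and GC trends both removed. Clca1, a goblet cell protein that regulates Ano1, fell from 289 ± 5.06 to 183 ± 3.62 CPM, and Kcnn4, the calcium-activated potassium channel that drives chloride exit, from 26.8 ± 1.91 to 15.3 ± 0.897 CPM (edgeR, adjusted p = 1.98e-09 and 2.66e-07). Clca3b fell by 0.45 on the log2 scale. The chloride-proton exchanger Clcn3 rose (0.49), and with length and GC trends both removed it lay at 0.08 (edgeR, adjusted p = 0.0919).

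Of the calcium entry genes upstream of Ano6, 4 rose and 3 fell of the 13 that reached the count filter in both groups, a share called near the 57% of all tested genes. Trpm7, a cation channel with a kinase domain, rose from 160.0 ± 4.57 to 290 ± 13.9 CPM (edgeR, adjusted p = 4.22e-10), a log2 fold change of 0.86 that was 0.33 with length and GC trends both removed, and the purinergic receptor P2ry2 fell from 6.70 ± 0.659 to 2.97 ± 0.574 CPM (edgeR, adjusted p = 5.63e-06). P2ry1 (0.30) and Stim2, a calcium sensor of the endoplasmic reticulum (0.27), rose as well. P2ry1 was at 0.11 with length and GC trends both removed. Stim2 lost its call with the length trend removed, at 0.11 (edgeR, adjusted p = 0.131).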

How the data were processed

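The authors deposited 1 table with estimated counts (read counts per gene, 58.9% to 69.2% of them not whole numbers), FPKM and TPM per library, per the file headers. HISAT, Bowtie2, RSEM and the build GRCm39 appear in the submitters' processing notes without versions, and neither annotation nor strand setting is known here. Estimated counts were rounded and fitted in R 4.3.3 with edgeR 4.0.16 (filterByExpr, which keeps a gene with about 10 reads in 3 libraries of any group, TMM, robust quasi-likelihood test, two-sided), with Benjamini-Hochberg adjustment across the 13558 genes tested and calls at 0.05. An SE was obtained by dividing a log2 fold change by the root of its F statistic. Alternatives used limma 3.58.1, DESeq2 1.42.0, other scalings and filters, a replicate block, removed libraries, and loess removal (span 0.5) of trends with implied transcript length (93.1% of tested genes) or, chosen after seeing the data, GC content of GENCODE transcripts (98.7%). Chromosomes, overlaps and gene order come from RefSeq on GRCm38, so no coordinates are given. Of these steps only the reported edgeR fit was tested on simulated data. Far fewer genes differed in the simulation than in these libraries, and it held no length or GC trend. It therefore does not show how the fit performs under such conditions.

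Members and gene lists were chosen with earlier results of these data known. Named genes are the members, their families, Git2, the 3 tested genes on each side of Ano6, the 5 closest profiles, and in each other list up to 4 called genes with the smallest p and the 2 highest in TPM. Predicted genes are not named. Replicates differed by more than counting noise (chi-square per degree of freedom 1.59 to 6.79). Results for some genes are not reported here.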

Additional observations from a re-analysis of the deposited data

How the results depend on the processing

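The counts of relatives of Ano6 that changed were small and moved with the processing. Among the genes of the set other than Ano6, 1 rose and 4 fell. With library totals 2 rose, with DESeq2 2 fell, on log2(TPM + 1) 3 rose and 0 fell (limma, the 3 being Ano9, Plscr1 and Plscr3), with the length trend removed 2 rose, with the GC trend removed 2 rose and 0 fell, and with both trends removed 3 rose and 2 fell. Leaving out single libraries gave 1 to 4 falls and 1 rise. Over all genes 3712 fell, 1894 on log2(TPM + 1) and 2390 with both trends removed. The log2 ratio of summed anoctamins was -0.06 in TPM, -0.19 in FPKM and -0.22 in CPM per kilobase, and without Ano6 it was 0.23, 0.10 and 0.067. Among genes called in the reported analysis or in the alternative, directions turned for Ano10 (0.050 on log2(TPM + 1), 0.0018 with both trends removed), P2rx4 (0.043 on log2(TPM + 1)), Arid2 (-0.039 with the length trend removed, -0.10 with both), Scaf11 (-0.062 and -0.10), Vps13a (-0.0059 with both), and, with the GC trend removed, Nptn (-0.18), Tmem63b (0.051), Vmp1 (-0.15), Atp9a (0.030) and Clca4b (-0.17, -0.12 with both). Genes called in neither, such as Plscr1 (-0.075 with the GC trend removed) and Plscr3 (-0.020 without Git2-knockout replicate 1), also changed sign in some settings. The cause was not tested. The replicate numbers did not pair the libraries, with correlations of deviations of 0.04, -0.00 and 0.05 between same-numbered libraries. With the replicate block 1 relative rose and 3 fell, Ano10 losing its call at adjusted p = 0.0678.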
